A study of Saccharomyces cerevisiae with 10 samples.

Results

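The genes described here are 10 enzymes of sulfate assimilation and sulfur amino acid synthesis in budding yeast. They are MET3, MET14, MET16, MET5, MET10, MET2, MET17, CYS3, MET13 and MET6, taken from the platform annotation of the array. Each had 1 probe set, so they are 10 of 5449 named genes and 10 of 5716 probe sets.

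Yeast takes up sulfate, activates it with ATP, reduces it to sulfite and then to sulfide, and fixes the sulfide onto a carbon chain made from aspartate to give homocysteine. Homocysteine is methylated to methionine with a methyl group from folate, or passed by transsulfuration to cysteine and glutathione. Many of these genes are under the activator Met4, which is held in check when methionine, S-adenosylmethionine or cysteine is plentiful, and amino acid starvation also raises many of them through Gcn4. THO/TREX, the complex that the strains lack parts of, couples transcription elongation to export of mRNA from the nucleus, with Hpr1 and Tho2 as core THO subunits and Sub2 as an RNA helicase.

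Total RNA was measured on 10 single-colour Affymetrix arrays of 4 strains grown to mid-log phase in YPAD, a rich medium with adenine that itself holds methionine and cysteine. The strains were hpr1∆ (SChY58a, with hpr1∆::kanMX4, 3 arrays), sub2∆ (DLY23 sub2∆, with sub2∆::HIS3, 2 arrays), tho2∆ (RK2-6C, with tho2∆::KanMX4, 2 arrays) and the wild type W303-1A (WT, 3 arrays). All 4 are MATa, and all carry a mutant leu2 allele, the further auxotrophic alleles ura3-1, trp1-1, his3-11,15 and ade2-1, and the transporter allele can1-100. The labels name none of the 10 genes as mutated and give 1 strain per deletion. Replicate arrays are labelled as biological, but the cultures are not described, so the p-values speak of the spread from array to array, which may be technical. RNA of a whole culture was measured, so a lower level in every cell and a loss in some of the cells cannot be told apart.

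Each deleted gene read lower in its own strain. HPR1 read between 188 and 209 on the hpr1∆ arrays and between 517 and 629 on the WT arrays, SUB2 read 104 and 54.6 in sub2∆ and at least 11974 in WT, and THO2 read 322 and 183 in tho2∆ and at least 2363 in WT. Against the MATa labels, the a-factor gene MFA1 read at least 1635 on every array and the alpha-factor gene MF(ALPHA)1 at most 87.4. The a-specific genes STE2, STE6 and BAR1 had values on every hpr1∆ and WT array (STE2 at least 4683), but were empty on all 4 sub2∆ and tho2∆ arrays, so these 3 genes check nothing there. The deposited values are linear intensities with some cells empty, and the sources used here give no reason for the gaps. The hpr1∆ arrays and WT replicates 1 and 3 had between 7 and 66 empty cells, and the sub2∆ and tho2∆ arrays and WT replicate 2 between 414 and 811. Of the 100 cells of the 10 genes, 7 were empty, namely 4 of MET10, 2 of MET13 and 1 of MET16. The WT arrays were spread in these genes. The 7 genes with a value on every array were each centred on their mean over the arrays. Their mean log2 value was then 0.46, 0.80 and 0.58 on WT replicates 1, 2 and 3. WT replicate 1 was set against the other WT arrays, a comparison made for that array alone. On the log2 scale it lay below the mean of the other WT arrays for 8 of the 9 genes that could be compared, with a median of -0.41, against -0.03 over 5627 probe sets, of which 53.8% lay below. MET5 lay at -0.73, where 2.2% of probe sets were as low or lower, and MET3 at 0.74, where 95.4% were. The mean SD of the 10 genes within a strain was 0.10 in hpr1∆, 0.10 in sub2∆, 0.12 in tho2∆ and 0.29 in WT on the log2 scale.

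**Figure D1:**
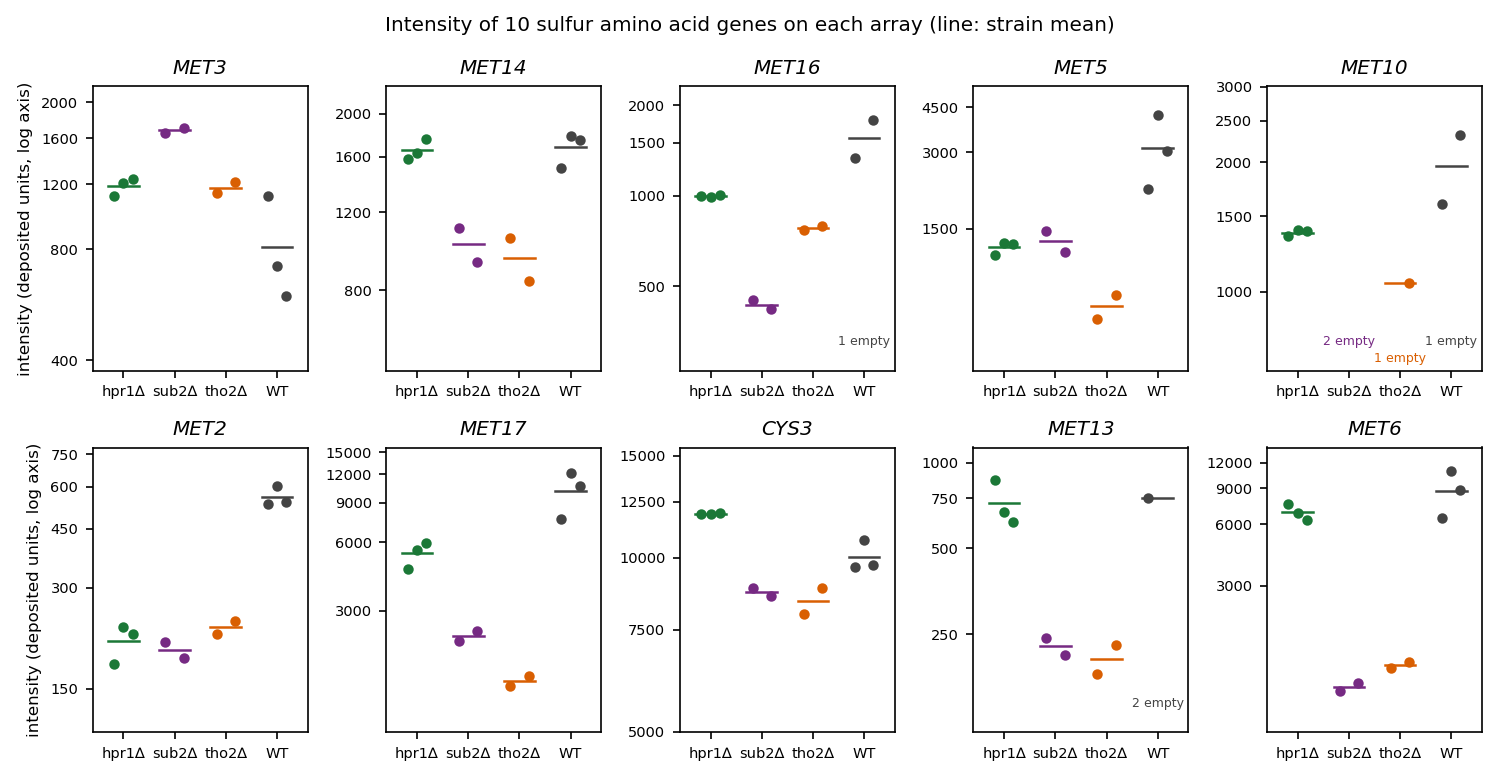
Intensity (deposited units, log axis, a scale per panel) of each of the 10 genes on every array of hpr1∆, sub2∆, tho2∆ and WT, with a point per array, a line at the strain mean and the number of empty cells where there are any. MET17 and MET6 lie far below WT in sub2∆ and tho2∆, MET2 lies at 178 to 239 on the mutant arrays and at 533 to 604 on the WT arrays, and MET3 is the gene whose mutant points lie above every WT point in all 3 mutants.

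Each deletion strain was compared with WT. With 1 strain per deletion, loss of the subunit cannot be told apart from other differences of that strain. Changes are log2 ratios of (intensity + 16), mutant over WT, with standard errors (SE), from limma fits over all 10 arrays. A gene was called where the p-value, adjusted by the Benjamini-Hochberg method over every probe set tested in that comparison, lay under 0.05. In hpr1∆ 4 of the 9 tested genes fell, 2 rose and 3 were not called, with a median of -0.48. In sub2∆ 6 of 8 fell, 1 rose and 1 was not called (median -1.30), and in tho2∆ 7 of 8 fell and 1 rose (median -1.10). Over all probe sets tested, 45.6% were called in hpr1∆, 61.3% in sub2∆ and 57.5% in tho2∆. The share called lower was 22.8% in hpr1∆, 40.4% in sub2∆ and 32.9% in tho2∆, the share called higher 22.8%, 20.9% and 24.5%, and the medians of all were -0.01, -0.16 and -0.06 in that order. In sub2∆ 34% of all calls were higher, against 46.7% after array medians were subtracted, a step that moved the median of all probe sets to -0.03. The arrays did not overlap those of WT for 7 of 9 tested genes in hpr1∆, 8 of 8 in sub2∆ and 8 of 8 in tho2∆, against 58.2%, 71.1% and 69.1% of all probe sets. A fall of at least 2-fold was called for 2 of the 9 tested genes in hpr1∆, 5 of 8 in sub2∆ and 4 of 8 in tho2∆, where the shares of all probe sets were 3.88%, 11.9% and 8.44%. The 3 comparisons share the same WT arrays.

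MET3 (YJR010W) encodes ATP sulfurylase, which activates sulfate in the first step of assimilation. It read 1115, 1211 and 1243 on the hpr1∆ arrays, 1656 and 1705 on the sub2∆ arrays, 1133 and 1217 on the tho2∆ arrays, and 1112, 721 and 599 on the WT arrays. Every mutant array lay above every WT array, but WT replicate 1 nearly met the lowest of them. The gene rose by 1.08 ± 0.21 in sub2∆ (SE, limma adjusted p = 0.00196), by 0.59 ± 0.19 in hpr1∆ (limma adjusted p = 0.0318) and by 0.57 ± 0.21 in tho2∆ (limma adjusted p = 0.0431). The call in sub2∆ held under all alternatives run. Those in hpr1∆ and tho2∆ were lost under 9 and 13 of them, with changes from 0.40 to 0.97 and from 0.38 to 0.93 (highest limma adjusted p = 0.155 in hpr1∆ and 0.174 in tho2∆).

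MET14 (YKL001C) encodes the kinase of the second step. It read 1584, 1630 and 1754 in hpr1∆, 1108 and 925 in sub2∆, 1046 and 841 in tho2∆, and 1513, 1779 and 1751 in WT. The hpr1∆ and WT arrays overlapped, with a difference of -0.02 (95% interval from -0.27 to 0.24, limma adjusted p = 0.905). All sub2∆ and tho2∆ arrays lay below all WT arrays, and the gene fell, with changes of -0.72 ± 0.12 in sub2∆ and -0.83 ± 0.12 in tho2∆ (limma adjusted p = 0.00102 and 0.000545).

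MET16 (YPR167C) encodes the reductase that makes sulfite. It read 1000, 989 and 1008 in hpr1∆, 450 and 419 in sub2∆, 769 and 795 in tho2∆, and 1338 and 1780 in WT, where replicate 2 was empty. No strain's arrays overlapped those of another. The gene fell, with changes of -0.62 ± 0.12 in hpr1∆, -1.79 ± 0.13 in sub2∆ and -0.97 ± 0.13 in tho2∆ (limma adjusted p = 0.00395, 1.78e-05 and 0.000428).

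MET5 (YJR137C) and MET10 (YFR030W) encode the subunits of sulfite reductase, which makes sulfide. MET5 read 1186, 1323 and 1315 in hpr1∆, 1477 and 1223 in sub2∆, 666 and 824 in tho2∆, and 2143, 4195 and 3044 in WT. All mutant arrays lay below the lowest WT array, and the WT arrays themselves were spread widely. MET5 fell, with changes of -1.23 ± 0.22 in hpr1∆, -1.16 ± 0.24 in sub2∆ and -2.001 ± 0.24 in tho2∆ (limma adjusted p = 0.00199, 0.00287 and 0.000163). MET10 read 1346, 1390 and 1385 in hpr1∆ against 1600 and 2314 in WT, with WT replicate 2 empty. Those arrays did not overlap, but the difference of -0.48 ± 0.16 was not called (limma adjusted p = 0.0574). In tho2∆ 1 array of MET10 had a value, 1049, and in sub2∆ none had, so the gene was not tested there.

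MET2 (YNL277W) and MET17 (YLR303W) encode the enzymes that acetylate homoserine and then join it with sulfide to give homocysteine. MET2 read 178, 228 and 219 in hpr1∆, 207 and 185 in sub2∆, 218 and 239 in tho2∆, and 533, 604 and 539 in WT. The mutants formed 1 range well below the WT arrays. MET2 fell, with changes of -1.36 ± 0.10, -1.44 ± 0.11 and -1.23 ± 0.11 in hpr1∆, sub2∆ and tho2∆ (limma adjusted p = 3.51e-05, 1.50e-05 and 3.95e-05). MET17 read 4593, 5562 and 5937 in hpr1∆, 2199 and 2429 in sub2∆, 1393 and 1538 in tho2∆, and 7642, 12111 and 10628 in WT. From low to high the strains stood in the order tho2∆, sub2∆, hpr1∆, WT, with no overlap between neighbours. MET17 fell, with changes of -0.90 ± 0.17 in hpr1∆, -2.10 ± 0.19 in sub2∆ and -2.75 ± 0.19 in tho2∆ (limma adjusted p = 0.00285, 2.61e-05 and 9.69e-06).

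CYS3 (YAL012W) encodes cystathionine gamma-lyase, the last step of the route from homocysteine to cysteine. It read 11879, 11917 and 11923 in hpr1∆, 8871 and 8581 in sub2∆, 7975 and 8868 in tho2∆, and 9640, 10727 and 9690 in WT. The hpr1∆ arrays lay above all WT arrays and the sub2∆ and tho2∆ arrays below them. CYS3 rose by 0.25 ± 0.07 in hpr1∆ and fell by 0.25 ± 0.08 in tho2∆ (limma adjusted p = 0.0173 and 0.0203). In sub2∆ the difference was -0.20 ± 0.08 and was not called (limma adjusted p = 0.0503), but it was called under 8 of 21 alternatives and ran from -0.30 to -0.06 over them. The call in hpr1∆ was lost without hpr1∆ replicate 2 or 3 or WT replicate 3 (highest limma adjusted p = 0.0596), and that in tho2∆ after quantile normalization, with only the arrays compared, or without tho2∆ replicate 1 (highest limma adjusted p = 0.164).

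MET13 (YGL125W) and MET6 (YER091C) serve the folate branch. MET13 encodes a methylenetetrahydrofolate reductase, which makes the methyl donor, and MET6 the methionine synthase that uses it. MET6 read 7502, 6822 and 6302 in hpr1∆, 918 and 1001 in sub2∆, 1189 and 1274 in tho2∆, and 6426, 10937 and 8854 in WT. The hpr1∆ arrays overlapped WT, while the sub2∆ and tho2∆ arrays lay far below both. MET6 was 8.77-fold lower in sub2∆ (-3.13 ± 0.19, limma adjusted p = 4.76e-06) and 6.86-fold lower in tho2∆ (-2.78 ± 0.19, limma adjusted p = 9.90e-06). It had the 17th lowest change of 4801 probe sets tested in sub2∆ and the 19th lowest of 4752 in tho2∆. In hpr1∆ the difference of -0.32 was not called (95% interval from -0.71 to 0.08, limma adjusted p = 0.164), while without WT replicate 1 it was -0.52 and called (limma adjusted p = 0.00424) and without WT replicate 2 it was -0.14 and not called (limma adjusted p = 0.453). MET13 read 869, 672 and 619 in hpr1∆, 242 and 212 in sub2∆, and 181 and 229 in tho2∆. WT replicate 1 read 753 and the other WT cells were empty, so MET13 was not tested against WT.

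**Figure D2:**
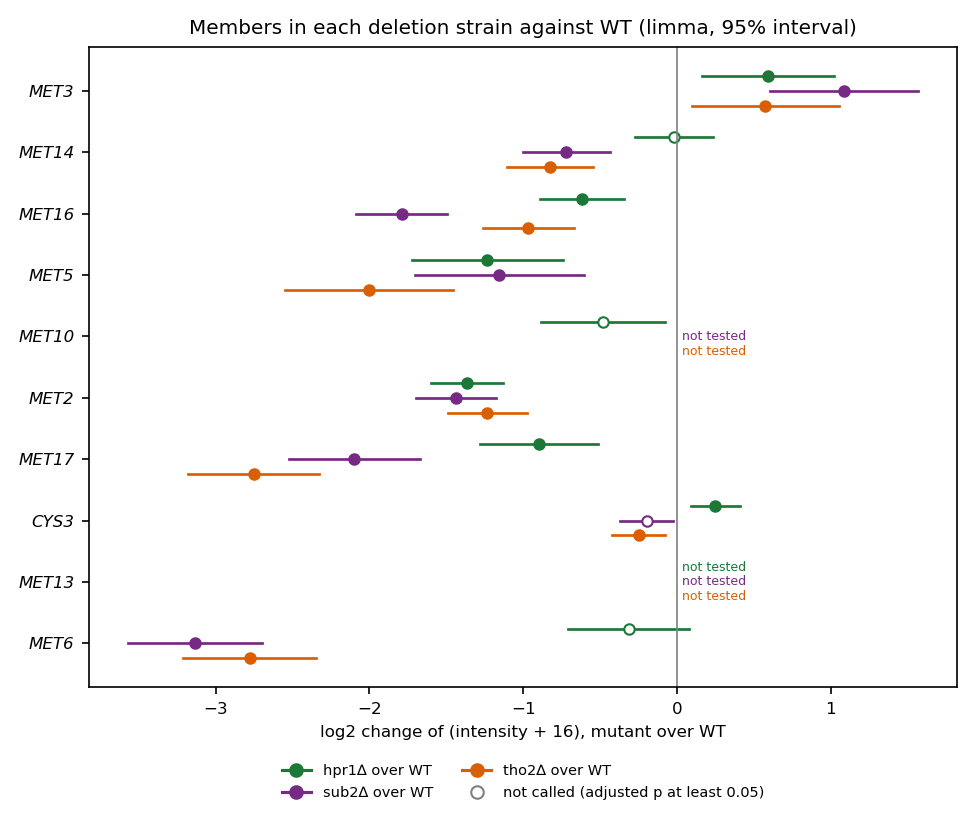
Log2 change of (intensity + 16) in hpr1∆, sub2∆ and tho2∆ over WT for the 10 genes, with 95% intervals from limma; open points were not called. MET2 has overlapping intervals in the 3 mutants, MET6 and MET14 have open points in hpr1∆ only, and MET3 lies right of 0 in all 3.

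Without WT replicate 1, 6 of 7 tested genes were called in hpr1∆ and all 7 in both sub2∆ and tho2∆, MET10 and MET16 then having too few WT values. Of all probe sets 54.8% were called in hpr1∆, 67.5% in sub2∆ and 63.8% in tho2∆ in those fits. Without WT replicate 3, 3 of 7 were called in hpr1∆, MET2, MET5 and MET17, against 40.7% of all probe sets. Because empty cells split the arrays, the changes were also taken within arrays of a like number of empty cells. In hpr1∆ against WT replicates 1 and 3, MET2 was at -1.31, MET5 at -0.996 and MET17 at -0.76, each called, while the call of MET3 was lost. Against WT replicate 2 alone, a single array, MET6 was at -3.49 in sub2∆ and -3.13 in tho2∆. MET17 was at -2.38 and -3.04, and MET2 at -1.55 and -1.34. WT replicate 2 was the highest WT array for each of these genes, so their falls could only be larger than the reported ones.

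The differences between mutants show where the strains part. These tests do not use the WT arrays except for the shared spread, but each of the 3 comparisons shares arrays with the others. In tho2∆ 7 of 9 tested genes were lower than in hpr1∆ and 0 were higher (median -0.77), where 38.1% of all probe sets were called and 22.6% called lower. In sub2∆ 6 of 9 were lower than in hpr1∆ and 0 were higher (median -0.70), where 52% were called and 35.9% called lower. The share called higher was 15.5% in tho2∆ and 16.1% in sub2∆. The counts of 0 are from limma, and at an unadjusted p under 0.05 they were 0 in tho2∆ and 1 in sub2∆ (MET3). Between sub2∆ and tho2∆ 1 of 9 was lower and 0 were higher (2 at an unadjusted p), where 21.9% of all probe sets were called, 13.1% lower and 8.78% higher. Of all calls in tho2∆ over hpr1∆ 40.6% were higher, against 29.8% after quantile normalization, and in sub2∆ over tho2∆ 40.2%, against 69.1% after quantile normalization and 70% with array medians subtracted. Arrays did not overlap for 7 of 9 genes between tho2∆ and hpr1∆, 7 of 9 between sub2∆ and hpr1∆ and 6 of 9 between sub2∆ and tho2∆, against 75.9%, 80.3% and 72.7% of all probe sets.

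MET6 was 7.05-fold lower in sub2∆ than in hpr1∆ (-2.82 ± 0.19, limma adjusted p = 2.11e-05) and 5.51-fold lower in tho2∆ than in hpr1∆ (-2.46 ± 0.19, limma adjusted p = 7.10e-05). It had the 6th lowest difference in each comparison, of 4831 and 4781 probe sets. MET13, which could be tested here, was lower by 3.00-fold in sub2∆ (-1.59 ± 0.17) and 3.31-fold in tho2∆ (-1.73 ± 0.17) than in hpr1∆ (limma adjusted p = 0.000436 and 0.000555). MET14 was also lower than in hpr1∆, at -0.70 ± 0.12 in sub2∆ and -0.81 ± 0.12 in tho2∆, and so was CYS3, at -0.45 ± 0.08 and -0.50 ± 0.08 (limma adjusted p between 0.00146 and 0.00180). MET17 was lower by 2.30-fold in sub2∆ and 3.62-fold in tho2∆ than in hpr1∆ (limma adjusted p = 0.000951 and 0.000216).

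MET16 set sub2∆ apart from the other mutants. It was lower in sub2∆ than in hpr1∆ (-1.17 ± 0.12, limma adjusted p = 0.000181) and than in tho2∆ (-0.82 ± 0.13, limma adjusted p = 0.00436). In tho2∆ it was at -0.35 ± 0.12 to hpr1∆ (limma adjusted p = 0.0471), a call lost without any one of the 7 mutant arrays. MET5 was lower in tho2∆ than in hpr1∆ (-0.77 ± 0.24, limma adjusted p = 0.0343), a call lost without any one of the 5 arrays compared. Between sub2∆ and tho2∆ MET5 differed by 0.84 ± 0.26 (95% interval from 0.25 to 1.44, limma adjusted p = 0.0502), and between sub2∆ and hpr1∆ by 0.08 (95% interval from -0.47 to 0.62), a value that ran from -0.64 to 0.21 over the alternatives and was called in none of them. MET17 differed by 0.65 ± 0.20 between sub2∆ and tho2∆ (limma adjusted p = 0.0515) with no overlap of arrays. Both values of that comparison lay just outside the threshold and were called under 9 and 10 of the alternatives.

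MET2 did not differ between mutants by a called amount. Its differences were -0.08 for sub2∆ over hpr1∆ (95% interval from -0.34 to 0.18), 0.13 for tho2∆ over hpr1∆ (from -0.13 to 0.39) and -0.21 for sub2∆ over tho2∆ (from -0.49 to 0.08). Quantile normalization turned the sign of the last 2, to -0.45 in tho2∆ over hpr1∆ (limma adjusted p = 0.0553) and 0.23 in sub2∆ over tho2∆ (limma adjusted p = 0.445), both outside these intervals, so no order of the mutants can be read from MET2. MET3 was at 0.49 in sub2∆ over hpr1∆ (95% interval from 0.01 to 0.97, limma adjusted p = 0.0773) and at -0.02 in tho2∆ over hpr1∆ (95% interval from -0.50 to 0.46). No set of arrays with a like number of empty cells held hpr1∆ together with sub2∆ or tho2∆. WT alone had arrays on both sides of that split. A block for it therefore rests on WT replicate 2 against WT replicates 1 and 3, and its values are no separate check from the mutant arrays. With that block, MET6 was at -3.35 in sub2∆ and -3.00 in tho2∆ over hpr1∆. MET17 was at -1.63 and -2.28, and MET14 at -0.83 and -0.94. All of these were called. The block moved MET5 further, to -0.64 in sub2∆ over hpr1∆ (limma adjusted p = 0.106), against 0.08 without it, and to -1.48 in tho2∆ over hpr1∆ (limma adjusted p = 0.00902), against -0.77 without it. MET16 and MET13 could not be fitted with the block in those comparisons, and whether the split has a part in their values was not tested.

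**Figure D3:**
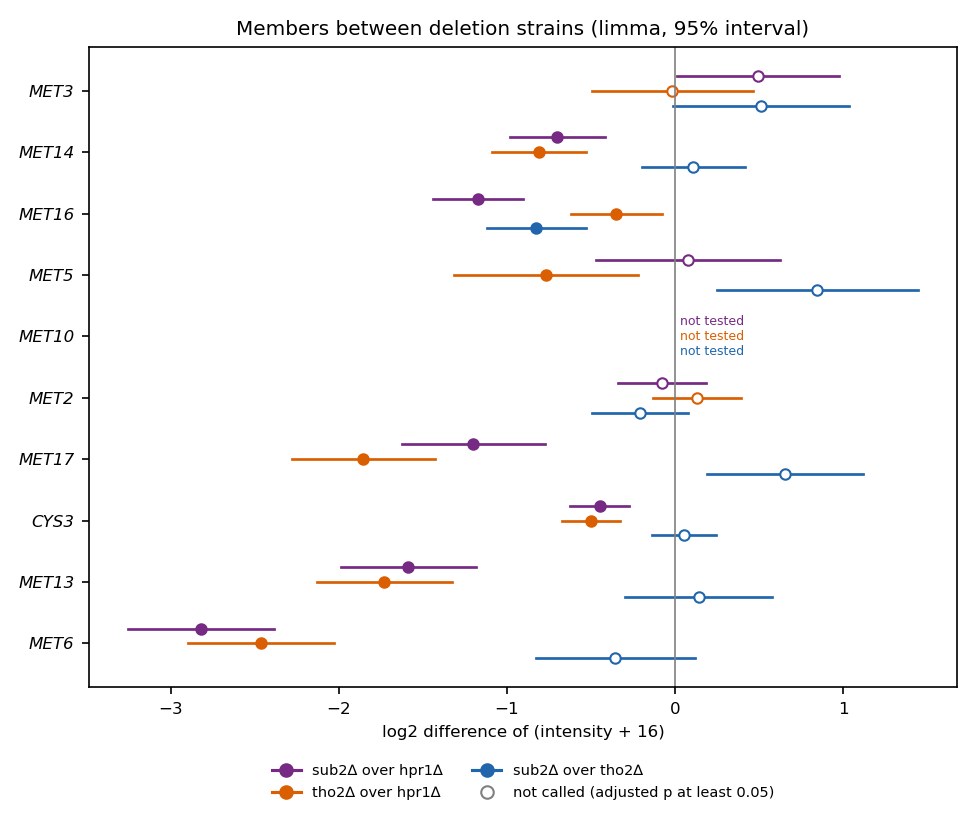
Log2 difference of (intensity + 16) for sub2∆ over hpr1∆, tho2∆ over hpr1∆ and sub2∆ over tho2∆, with 95% intervals from limma; open points were not called. MET6, MET13, MET17, MET14 and CYS3 lie left of 0 for both strains over hpr1∆, MET2 lies near 0 throughout on the deposited scaling (2 of its signs turn with quantile normalization), and MET16 is the called point of sub2∆ over tho2∆.

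The other genes of the sulfur network were 45 genes in 8 lists, chosen with earlier results of these data known. Of 44 tested in hpr1∆ over WT, 16 fell and 4 rose, of 35 in sub2∆ 23 fell and 4 rose, and of 34 in tho2∆ 21 fell and 3 rose. Their medians were -0.08, -0.53 and -0.50 in that order. The counts of each list stand against the shares of all probe sets called lower, which were 22.8% in hpr1∆, 40.4% in sub2∆ and 32.9% in tho2∆, and called higher, which were 22.8%, 20.9% and 24.5%.

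The methyl cycle, which turns methionine into S-adenosylmethionine and back, divided the strains as MET6 did. In hpr1∆ over WT 0 of 9 genes fell with limma (2 at an unadjusted p under 0.05) and 2 rose (median 0.01). In sub2∆ 7 of 9 fell and 1 rose (median -0.54), and in tho2∆ 6 of 8 fell and 0 rose (median -0.47). Set against hpr1∆ directly, 8 of 9 were lower and 1 was higher in sub2∆, where 35.9% of all probe sets were called lower and 16.1% higher. In tho2∆ 6 of 8 were lower than in hpr1∆, where 22.6% of all probe sets were called lower. SAM2, an S-adenosylmethionine synthetase, read 8454, 7842 and 7366 in hpr1∆, 1660 and 1892 in sub2∆, 1571 and 1566 in tho2∆, and 5998, 7406 and 8098 in WT. It fell, with changes of -1.995 ± 0.13 in sub2∆ and -2.17 ± 0.13 in tho2∆ (limma adjusted p = 5.91e-06 and 5.90e-06), while in hpr1∆ its difference from WT was 0.15 ± 0.12 (limma adjusted p = 0.325). Its close paralog SAM1 read 8158, 8064 and 7725 in hpr1∆, 3358 and 3916 in sub2∆, 2132 and 1876 in tho2∆, and 9169, 9534 and 8544 in WT, and fell, with changes of -1.32 ± 0.09 in sub2∆ and -2.17 ± 0.09 in tho2∆. The paralogs are alike in sequence, so some signal of each may be the other's. SHM2, which supplies one-carbon units to folate, fell, with changes of -0.99 ± 0.19 in sub2∆ and -0.90 ± 0.19 in tho2∆, as did MET12, the other methylenetetrahydrofolate reductase, with -0.99 ± 0.08 and -0.73 ± 0.08. All 4 were also lower in sub2∆ and in tho2∆ than in hpr1∆ (highest limma adjusted p = 0.00270, for SHM2 in tho2∆). The calls of SAH1 and SAM4 in tho2∆ over WT, -0.21 each, were lost under 6 and 12 alternatives.

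Most tested transporter genes fell in each mutant. Of 8 genes for sulfate and sulfur amino acid transport, 5 fell and 1 rose in hpr1∆ over WT (median -0.52), and 5 of 5 tested fell in both sub2∆ (median -1.03) and tho2∆ (median -0.90). SUL1, SUL2 and SEO1 had too few values to be tested in sub2∆ and tho2∆, so these medians are not of the same genes as that of hpr1∆. On 1 sub2∆ array each, SUL1 read 191, against 76.7 and 97.0 in WT, and SUL2 read 77.1. MUP1, the high-affinity methionine permease, read 3304, 3277 and 3277 in hpr1∆, 2915 and 2748 in sub2∆, 1826 and 1830 in tho2∆, and 5700, 6146 and 5614 in WT. The arrays of the 4 strains did not overlap. MUP1 fell, with changes of -0.82 ± 0.06, -1.03 ± 0.07 and -1.66 ± 0.07 in hpr1∆, sub2∆ and tho2∆ (limma adjusted p = 3.26e-05, 5.99e-06 and 1.65e-06). SUL2, a sulfate permease, fell by 1.39 ± 0.09 in hpr1∆ (155, 161 and 162 in hpr1∆ against 471 and 418 in WT, limma adjusted p = 0.000157). SUL1, the other sulfate permease, was not called there (0.17 ± 0.12, limma adjusted p = 0.279). SEO1, a putative permease, rose by 1.07 ± 0.11 in hpr1∆ (188, 199 and 219 in hpr1∆ against 80.5 and 94.95 in WT, limma adjusted p = 0.000789). MUP3, a low-affinity methionine permease, was at -0.70 in hpr1∆ and at -0.46 without WT replicate 1, and the call of MMP1, a permease of S-methylmethionine, in sub2∆ (-0.50) was lost under 6 alternatives.

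Most tested genes that serve sulfate reduction, or that lie in the homoserine and threonine branch, fell as well. MET22, whose product breaks down the nucleotide left over from sulfate reduction, read 2596, 2610 and 2684 in hpr1∆, 1901 and 2223 in sub2∆, 1965 and 1933 in tho2∆, and 5433 and 7782 in WT, where 1 cell was empty. It fell, with changes of -1.30 ± 0.15, -1.65 ± 0.16 and -1.73 ± 0.16 in hpr1∆, sub2∆ and tho2∆ (limma adjusted p = 0.000366, 7.27e-05 and 7.38e-05). Its list also holds MET1 and MET8, of siroheme synthesis for sulfite reductase, and 2 of 3 fell in hpr1∆, 2 of 2 in sub2∆ and 2 of 3 in tho2∆. MET1 was not called in hpr1∆ (-0.54, limma adjusted p = 0.0786) or tho2∆ (-0.51, limma adjusted p = 0.108). Its call in sub2∆ (-0.99) was lost under 1 alternative. In the homoserine and threonine branch 3 of 4 fell in hpr1∆, 3 fell and 1 rose in sub2∆, and 4 of 4 fell in tho2∆. HOM2, THR1 and THR4 fell in each mutant, while HOM6 fell in tho2∆ alone and was at 0.03 in hpr1∆, not called. HOM3 had 1 WT value and was not tested against WT. HOM2, which makes aspartate semialdehyde, fell, with changes of -0.76 ± 0.09, -1.77 ± 0.10 and -1.46 ± 0.10 in hpr1∆, sub2∆ and tho2∆ (limma adjusted p = 0.000244, 3.17e-06 and 8.56e-06). HOM6, homoserine dehydrogenase, rose in sub2∆ (0.34 ± 0.08) and fell in tho2∆ (-0.30 ± 0.08) (limma adjusted p = 0.00505 and 0.0102), and differed between these strains by 0.63 ± 0.08 (limma adjusted p = 0.00175). Its calls over WT were lost under 3 alternatives each.

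Transsulfuration genes fell in 3 of 4 cases in hpr1∆, 3 of 3 in sub2∆ and 2 of 3 in tho2∆. STR3, cystathionine beta-lyase, fell, with changes of -1.30 ± 0.17 in hpr1∆ and -1.81 ± 0.18 in sub2∆ (limma adjusted p = 0.00108 and 0.000167), and STR2, cystathionine gamma-synthase, with -1.28 ± 0.21 in hpr1∆ and -1.52 ± 0.23 in tho2∆ (limma adjusted p = 0.00300 and 0.00135). With 1 value each, STR3 in tho2∆ (168, against 389 and 544 in WT) and STR2 in sub2∆ (2138, against 2841 and 4824 in WT) were not tested. CYS4, cystathionine beta-synthase, changed little (-0.16, -0.26 and -0.34 in hpr1∆, sub2∆ and tho2∆), and its call in hpr1∆ was lost under 15 alternatives (highest limma adjusted p = 0.278). In sub2∆ the calls of CYS4 and of IRC7, a putative carbon-sulfur lyase (-0.62), were lost under 4 and 5 alternatives (highest limma adjusted p = 0.178 and 0.105), those without sub2∆ replicate 2 among them. Of 7 glutathione genes, 2 fell and 0 rose in hpr1∆ with limma (3 rose at an unadjusted p under 0.05, median 0.15). In sub2∆ 2 of 5 fell and 1 rose (median -0.21), and in tho2∆ 2 of 6 fell and 1 rose (median -0.11). The shares that fell were close to those of all probe sets, while 22.8% of all probe sets were called higher in hpr1∆. GSH1, the enzyme that starts glutathione synthesis, fell by 1.34 ± 0.19 in tho2∆ (limma adjusted p = 0.000385). In hpr1∆ its change of -0.51 was called, but the call was lost under 11 alternatives and the change was -0.28 without WT replicate 1. OPT1, a glutathione transporter, was at -0.85 in hpr1∆ and -0.53 without WT replicate 1, and DUG3, of glutathione breakdown, at 0.32 in sub2∆ and 0.21, not called, without sub2∆ replicate 1. Of the genes for other sulfur sources, JLP1 and BDS1, 0 of 2 were called in hpr1∆ by limma (1 at an unadjusted p, median -0.20). In sub2∆ 1 rose (JLP1, 0.42, a call lost under 5 of 19 alternatives) and 1 fell (BDS1). In tho2∆ 0 of 1 was called (BDS1, -0.01, limma adjusted p = 0.980). The fall of BDS1 in sub2∆, -0.64, was -0.31 and not called without sub2∆ replicate 1, and -0.96 without sub2∆ replicate 2.

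Of the regulators, 1 of 7 fell and 1 rose in hpr1∆ (median 0.08), in sub2∆ 0 of 5 were called by limma (0 at an unadjusted p, median 0.12), and in tho2∆ 0 of 4 fell (0 at an unadjusted p) and 2 rose (median 0.18), against 45.6%, 61.3% and 57.5% of all probe sets called in either direction. GCN4 read 18276, 18243 and 18237 in hpr1∆, 17547 and 16847 in sub2∆, 18048 and 19368 in tho2∆, and 16657, 20238 and 19381 in WT. Its arrays overlapped between each mutant and WT, with differences of -0.03 ± 0.08, -0.12 ± 0.09 and 0.00 ± 0.09 in hpr1∆, sub2∆ and tho2∆. MET4, the activator, differed from WT by -0.01 ± 0.19 in hpr1∆ and -0.14 ± 0.21 in sub2∆ (limma adjusted p = 0.971 and 0.586) and had 1 value in tho2∆. MET28, a cofactor of Met4, fell by 0.79 ± 0.11 in hpr1∆, at 327, 326 and 337 against 651 and 517 in WT (limma adjusted p = 0.00327). MET32, one of the DNA-binding partners of Met4, rose by 0.90 ± 0.14 in hpr1∆, at 309, 327 and 338 against 195 and 142 in WT (limma adjusted p = 0.00414). MET28 and MET32 had too few values to be tested in sub2∆ and tho2∆. MET28 read 222 on 1 sub2∆ array and 288 on 1 tho2∆ array. MET32 read 336 on 1 tho2∆ array and had no value in sub2∆. MET30, the ubiquitin ligase subunit that restrains Met4, rose by 0.40 ± 0.10 in tho2∆ (limma adjusted p = 0.00683), a call lost without tho2∆ replicate 2, with only the arrays compared, and within or with a block for the split by empty cells. MET31, another DNA-binding partner of Met4, rose by 0.33 in tho2∆ (limma adjusted p = 0.0157), a call also lost under 4 alternatives (highest limma adjusted p = 0.126). These are levels of mRNA and do not measure the activity of the factors.

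**Figure D4:**
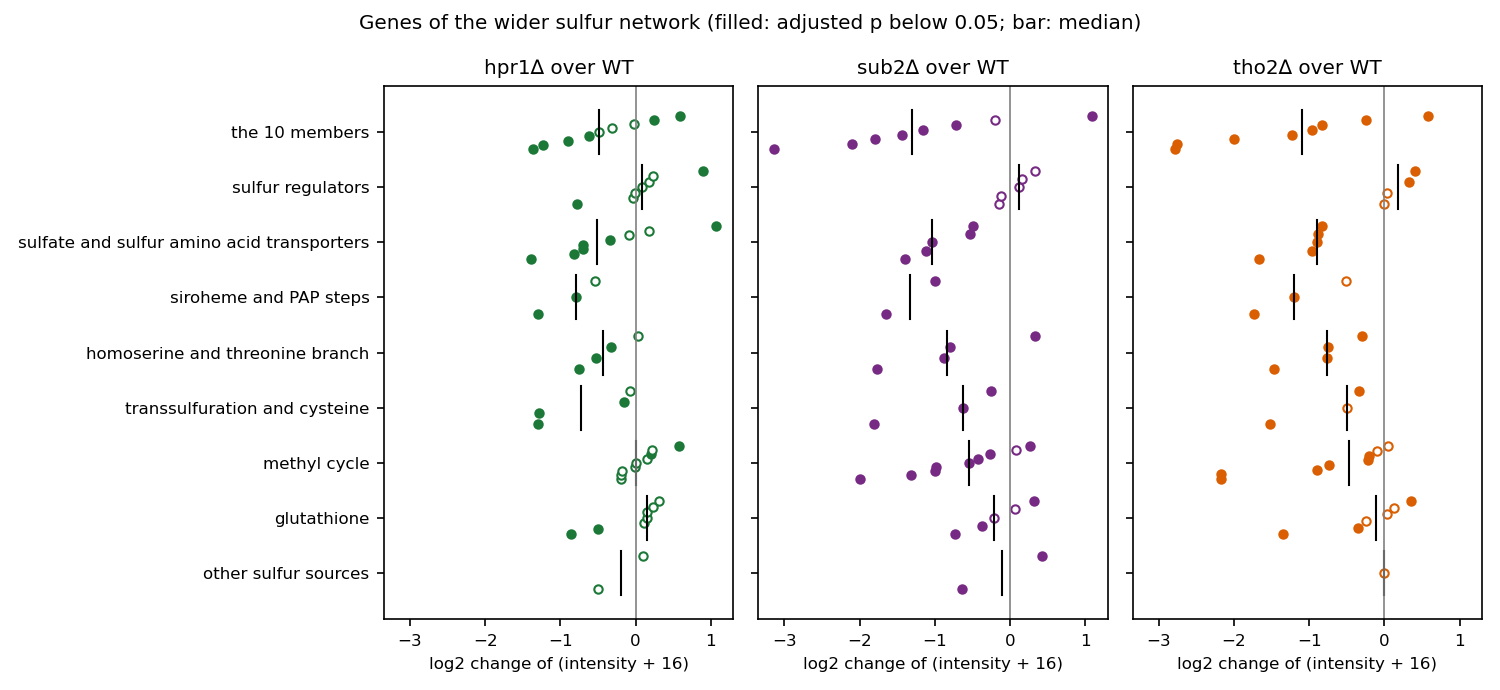
Log2 change of (intensity + 16) over WT in hpr1∆, sub2∆ and tho2∆ for the 10 genes and 8 lists of other sulfur genes, a point per tested gene, filled where called, with a bar at the median. The methyl cycle lies around 0 in hpr1∆ (median 0.01) and mostly left of 0 in sub2∆ (-0.54) and tho2∆ (-0.47). The regulators' medians are 0.08, 0.12 and 0.18 in the same order. MET28 and MET32 are called away from 0 in hpr1∆ and were not tested in sub2∆ and tho2∆.

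Across the 10 arrays the 7 genes with a value on each did not share 1 pattern. Against their mean profile, Pearson correlations were 0.99 for MET17, 0.94 for MET6, 0.92 for MET14, 0.87 for MET5, 0.74 for MET2, 0.67 for CYS3 and -0.70 for MET3. Each of the 7 genes is itself part of that profile, and those that change most weigh most in it. The arrays of a strain lie close together, so these values mainly follow 4 strain means and are given as a description. MET3 and MET2 had the lowest correlation of any pair, -0.79, and MET14 and MET6 the highest, 0.94. Among 4288 probe sets with a value on every array, the named genes outside the 10 with the highest correlation to that profile were MRP7, KGD4, MRPL31, TOM20, SCH9, HMF1, DCK1 and EHT1, from 0.99 for MRP7 to 0.98 for EHT1.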

How the data were processed

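Total RNA of hpr1∆ (3 arrays), sub2∆ (2), tho2∆ (2) and WT (3) was labelled with biotin by the array maker's 1-cycle protocol, per the labels' protocols. The deposited values are linear intensities between 1 and 35972, with 1 value for a probe set on an array. How they were background-corrected, summarised and scaled, and with which software, the sources used here do not say, and signal over background is unknown. Of 57160 cells, 5.63% were empty. Symbols came from the platform annotation (5498 of 5716 probe sets have 1 gene, 0 several, 218 none), updated by gene identifier to the R64 gene table. No genome or sequence table was used, so no sequence or coordinate is given.

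The authors' deposited intensities were raised by an offset of 16 and turned into log2 values, which understates changes of dim genes. Linear models with a mean per strain were fitted to all 10 arrays with limma 3.58.1 in R 4.3.3. The fit was tried on simulated data with the same spread on every array. The real WT arrays were more spread than the mutant arrays, so that trial does not check the shared spread. Empty cells were left out singly, and a test needed at least 2 values in both strains, or 1 in alternatives that leave a strain with a single array, which is then assumed to vary like the others. P-values were adjusted over all probe sets tested in each of 6 comparisons. Where a gene has several probe sets, that with the highest mean stood for it. The 10 members, all named, the 8 lists, from which genes called against WT are named (GCN4, MET4 and SUL1 were added after their values were seen), and the tests were chosen with earlier results of these data known. The labels' replicate numbers did not pair the arrays, since deviations of same-numbered arrays correlated between -0.20 and 0.09 in the comparisons. The number of arrays limits the precision.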

Additional observations from a re-analysis of the deposited data

How the results depend on the processing

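Over 12 counts (called members and called probe sets in 6 comparisons) and 254 alternatives, 229 counts stayed within 1.5 times the reported value. Over 52 changes of single members and 1039 alternatives, 0 turned direction with a call, 42 lost a call and 43 gained one. Lost calls were those of MET3 and CYS3 against WT and of MET16 and MET5 between tho2∆ and hpr1∆; the cause was not tested. Members called between sub2∆ and tho2∆, 1 as reported, were 3 with quantile normalization, 3 with array medians subtracted, 3 without the dimmest 25% of probe sets, 3 with the split by empty cells as a block, 2 with the replicate block, 5 with only the arrays compared, 5 with array weights, 5 within arrays with many empty cells and 0 (limma; 2 at an unadjusted p under 0.05) among probe sets with all 10 values. Leaving out an array gave 1 to 5, with 5 without WT replicate 1 and 3 without WT replicate 2. In hpr1∆ over WT it gave 3 to 6, with 3 without WT replicate 3.

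All probe sets called in sub2∆ over tho2∆ were 983 as reported, 653 with array medians subtracted, 1631 with array weights and 388 to 1705 leaving out an array (582 and 497 without sub2∆ replicates 1 and 2, 524 and 388 without tho2∆ replicates 1 and 2, 1705 without WT replicate 1). In tho2∆ over hpr1∆ they were 1821, 2857 with only the arrays compared, 2857 with array weights, 1172 with the split by empty cells as a block and 1069 to 2505 leaving out an array (1155 and 1069 without tho2∆ replicates 1 and 2). In hpr1∆ over WT they were 2584, 2308 with only the arrays compared, and 4306 with array weights, where WT replicate 3 weighed 6.49 and WT replicate 1 0.104. In sub2∆ over WT they were 2944, 2254 and 3528 in the same order of settings, and in tho2∆ over WT 2731, 1993 and 3444. The mean SD of all probe sets within a strain was 0.215 in WT and from 0.074 to 0.103 in the mutants, while the reported fit uses 1 shared spread.

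With the replicate block, calls lost were MET3 in hpr1∆ over WT (0.59, limma adjusted p = 0.0502) and tho2∆ over WT (0.50, limma adjusted p = 0.110), and MET16 and MET5 in tho2∆ over hpr1∆ (-0.29 and -0.75, limma adjusted p = 0.124 and 0.0595), and MET17 in sub2∆ over tho2∆ gained one (0.65, limma adjusted p = 0.0273); it changed no other call of the 10 genes. Outside them, the split by empty cells as a block put MET1 in tho2∆ over hpr1∆ at -0.83 (reported fit 0.03). It put MMP1 in sub2∆ over hpr1∆ at 0.034 (reported fit -0.41). That block rests on WT replicate 2 against WT replicates 1 and 3, so the WT arrays set both shifts. MET1 read 1516 on WT replicate 2 against 739 and 932 on the others, and MMP1 467 against 674 and 606. Counts restricted, after the data were seen, to members with a value on every array compared were 5, 6 and 7 in hpr1∆, sub2∆ and tho2∆ over WT.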
